A study of Rattus norvegicus with 18 samples.

Results

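The genes described here are 60 interferon and antigen presentation genes of the rat, out of 14217 genes that carry 1 symbol on an Affymetrix expression array. They were chosen by symbol: major histocompatibility complex (MHC) chains of the rat RT1 complex and B2m, the transporters, proteasome subunits and cofactors that supply class I molecules with peptide, the class II partners Cd74 and Ciita, the interferon regulatory factors, and the Ifit, Ifi, Ifitm, Oas, Mx, Gbp, Isg15 and Usp18 genes. Of 89 probe sets that fit these symbols, 7 carried several symbols and were not used, and where a gene had more than 1 probe set the one with the highest mean over the 18 arrays stands for it. By role, 13 members are MHC class I chains, 9 serve class I peptide supply and loading, 9 are class II chains or their partners, 7 are interferon regulatory factors and 22 are interferon-induced effectors.

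The 18 arrays held RNA of rat spinal cord material, 6 in each group. The control arrays are labelled as controls only. The BMP arrays were of material given bone morphogenetic protein, a ligand of the TGF-beta family, at 10 ng/mL, and the CNTF arrays of material given ciliary neurotrophic factor, a cytokine of the gp130 receptor family, at 10 ng/mL, both labelled 4 d. The labels state no strain, age, cell type, culture or BMP family member, give the controls no time, and open every description with the entry "14 NT", which was not interpreted. A difference in time therefore cannot be told apart from the additions in any comparison with the controls. Titles also number the arrays of each group from 1 to 6, and this number names an array below (BMP array 4). Separate cultures or animals are not stated for the arrays of a group; the p-values then reflect array-to-array spread alone, which may be technical.

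Interferons bind receptors that carry JAK kinases, which activate STAT proteins. Complexes that hold IRF9 bind the interferon-stimulated response element. The interferon-gamma activated site has a form that STAT3, the main STAT of gp130 cytokines, also binds. Class I molecules show peptides cut by the proteasome and carried by TAP on nearly all cells, whereas class II molecules are mostly made by professional antigen-presenting cells, in the brain and spinal cord chiefly microglia.

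Promoters of 5 of the 6 members that changed when arrays were not paired by their number are shown, all but Ifitm1. The reason is that these genes carry results below and that the letters of either element, or of both, can be read in each. Ifitm1 carries results below as well, but no promoter window was available for it, so its letters were not read. The windows run from 250 bases before to 50 bases after the gene start (RefSeq, build GRCr8), 5′ to 3′ on the gene's strand. Capitals mark matches on either strand to the element core GAAANNGAA or to the activated site TTCNNNGAA. Ifitm3 (chr1:205541709-205542008, minus strand), Ifitm2 (chr1:205482299-205482598, minus strand), Gbp7 (chr2:233948639-233948938, plus strand), Ifi27 (chr6:128355062-128355361, plus strand) and Irf9 (chr15:33065586-33065885, plus strand) read as follows.
Ifitm3: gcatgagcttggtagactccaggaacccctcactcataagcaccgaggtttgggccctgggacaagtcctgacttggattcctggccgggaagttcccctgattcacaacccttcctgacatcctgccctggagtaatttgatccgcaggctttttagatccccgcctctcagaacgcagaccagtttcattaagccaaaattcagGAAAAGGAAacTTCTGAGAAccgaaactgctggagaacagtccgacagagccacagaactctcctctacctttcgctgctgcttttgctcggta
Ifitm2: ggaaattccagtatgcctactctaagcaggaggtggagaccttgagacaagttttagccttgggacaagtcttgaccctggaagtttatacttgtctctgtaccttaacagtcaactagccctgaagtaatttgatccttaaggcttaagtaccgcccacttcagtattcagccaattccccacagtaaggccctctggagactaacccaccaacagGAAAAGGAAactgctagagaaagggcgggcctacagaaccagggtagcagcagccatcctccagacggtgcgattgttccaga
Gbp7: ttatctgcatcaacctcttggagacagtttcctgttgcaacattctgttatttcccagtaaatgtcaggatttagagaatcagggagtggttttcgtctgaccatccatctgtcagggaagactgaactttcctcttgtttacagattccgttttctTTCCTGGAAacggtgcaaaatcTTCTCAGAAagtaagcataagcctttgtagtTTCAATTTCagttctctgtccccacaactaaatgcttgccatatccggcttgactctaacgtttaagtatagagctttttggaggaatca
Ifi27: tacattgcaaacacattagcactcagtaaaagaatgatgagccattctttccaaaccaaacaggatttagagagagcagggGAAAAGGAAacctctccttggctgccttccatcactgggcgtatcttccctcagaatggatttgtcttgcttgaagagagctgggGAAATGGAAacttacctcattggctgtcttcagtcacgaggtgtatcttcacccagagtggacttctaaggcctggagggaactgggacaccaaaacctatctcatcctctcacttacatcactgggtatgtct
Irf9: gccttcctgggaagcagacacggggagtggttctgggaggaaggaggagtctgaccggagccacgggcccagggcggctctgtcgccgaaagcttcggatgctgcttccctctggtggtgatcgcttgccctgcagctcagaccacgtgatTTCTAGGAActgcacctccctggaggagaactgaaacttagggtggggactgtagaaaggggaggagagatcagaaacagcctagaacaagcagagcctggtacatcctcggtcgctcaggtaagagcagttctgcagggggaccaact
The same 9 letters, GAAAAGGAA, stood at -44 to -36 from the start of Ifitm3, at -33 to -25 in Ifitm2 and at -169 to -161 in Ifi27. Ifi27 held a second core, GAAATGGAA, at -84 to -76. Gbp7 held the core on the opposite strand at -40 to -32 and 2 activated sites, Ifitm3 held 1 activated site at -33 to -25, and Irf9 held 1 at -99 to -91 and no core.

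Of the 60 members, 48 had a promoter in the table, and 21 of them (43.8%) held the element core, against 9.71% of all 33469 windows of this length. The share differed with role: 11 of 15 effectors and 6 of 8 peptide supply genes held it, and 3 of 12 class I chains, 1 of 6 regulatory factors and 0 of 7 class II genes did. The activated site was in 10 of 48 (20.8%, against 8.87% of all windows). The Y box letters CCAAT, part of the module that MHC promoters share, were in 10 of 12 class I chains and 6 of 7 class II genes, and in 28 of 48 members (58.3%, against 37.5% of all). The letters GGCGCC of the BMP-SMAD element, to which SMAD1 and SMAD5 bind, were in 6 of 48 (12.5%, against 11%). These are matches of letters on both strands; the activated site reads alike on both strands and was counted once. No match was set against the measured differences.

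Levels below are log2(intensity + 116.655), where the constant is the 20th percentile of the whole table. On this scale a level near 6.87 is near zero intensity, the median of the table is 9.75, and differences of dim genes are understated. Levels are not compared between genes, since probe sets differ in brightness. Tests are limma's moderated tests on all 18 arrays with Benjamini-Hochberg adjustment over 31042 probe sets, and "rose" or "fell" means an adjusted p under 0.05. The title numbers pair the arrays, since deviations of same-numbered arrays correlated in all 18 pairs of arrays. A second fit therefore had the number as a block, and its adjusted p, called blocked below, is given where it changes a call.

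The series as a whole sets limits. On the first principal component of all probe sets, BMP arrays 1 to 3 lay at -66.5 to -56.9, apart from BMP arrays 4 to 6 at -18.7 to -1.6, and control and CNTF arrays lay at -5.3 to 41.4. Markers of other cells moved with the groups. All 8 measured oligodendrocyte precursor markers fell with BMP, and their summed intensity was 112307 to 169264 on control, 18652 to 110929 on BMP and 99811 to 152737 on CNTF arrays. Of 9 fibroblast and smooth muscle markers 1 (Col1a2) rose with BMP, with sums of 4490 to 13420 on control, 13572 to 78422 on BMP and 3599 to 25979 on CNTF arrays. Of 11 astrocyte markers Gfap rose with CNTF and Aqp4 with BMP, with sums of 186481 to 267545, 192062 to 306051 and 244439 to 362631. Of 9 oligodendrocyte markers 5 fell with BMP, with sums of 62138 to 215152, 15399 to 88511 and 81567 to 274969. Of 10 neuronal markers 2 and of 8 endothelial markers 1 rose with BMP, and of 6 Schwann cell markers 1 rose with BMP and 2 with CNTF; the neuronal sums were 62952 to 73389, 65543 to 108003 and 58249 to 81259. With the title number as a block, 5 fibroblast and 6 neuronal markers rose and 6 oligodendrocyte and all 8 precursor markers fell with BMP. With CNTF the block gave 1 fibroblast, 2 oligodendrocyte and 3 neuronal markers higher, and 1 neuronal and 1 precursor marker lower. Of the astrocyte markers 2 rose and 1 fell with each addition under the block, and the endothelial and Schwann cell counts against control were the same with it. Of all 14217 genes, 10.7% rose and 9.28% fell with BMP under the block, and 5.44% rose and 4.06% fell with CNTF. Without the block these shares were 4.21% and 3.02% with BMP, and 2.04% and 0.823% with CNTF. In such bulk samples more cells of a type and more RNA per cell cannot be told apart, and the part of these markers in the results below was not tested. The label spinal cord was checked against neural markers: 1 of 10 neuronal, 2 of 11 astrocyte, 0 of 8 precursor and 3 of 9 oligodendrocyte markers lay below the median of the table in all groups.

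Immune cell markers were dim. All 18 microglia and macrophage markers lay below the median of the table in every group, with means from 7.06 to 9.06, and none was called without or with the block. Their summed intensity was 2057 to 3171 on control, 1942 to 2526 on BMP and 2039 to 2411 on CNTF arrays, so the ranges overlapped. The defining markers Itgam, C1qb and Ptprc had means from 7.06 to 7.68 in the 3 groups. All 14 measured markers of dendritic cells, B, T and NK cells also lay below it, at 7.14 to 9.45, with none called and sums of 1569 to 2404, 1557 to 2691 and 1406 to 2204.

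Most members were dim as well. In 40 of the 60 the mean was below the median of the table in all 3 groups, and 15 were at or above it in every group. By role, a mean at or above the median in at least 1 group was found for 4 of 13 class I chains, 4 of 9 peptide supply genes, 2 of 9 class II genes, 4 of 7 regulatory factors and 6 of 22 effectors. For the 40 dim genes, the constant compresses any difference, and a p that missed the threshold does not show that they were unchanged.

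**Figure D1:**
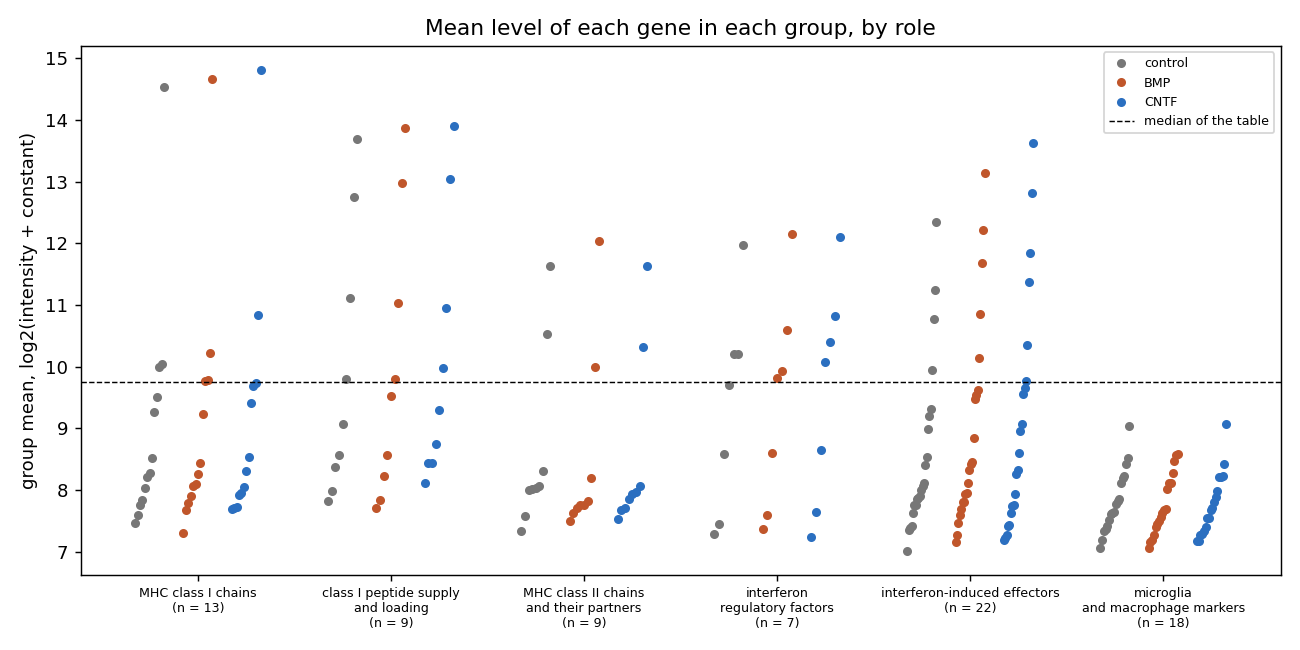
Mean level of each of the 60 members in control, BMP and CNTF arrays (vertical axis, log2(intensity + constant); 6 arrays per mean), by role, with 18 microglia and macrophage markers at the right; each point is 1 gene and the dashed line is the median of the table, 9.75. In each role most points lie below the line except among the regulatory factors, and all marker points do.

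With BMP, 4 of the 60 members rose (6.67%) and 0 fell, against 4.21% of all 14217 genes that rose and 3.02% that fell. The 4 were the effectors Ifitm3, Ifitm2, Gbp7 and Ifi27. At an unadjusted p under 0.05, 11 members were higher and 4 lower. With CNTF, 3 members rose (5.0%) and 0 fell, against 2.04% and 0.823% of all genes, and these were Ifitm3, Ifitm1 and Irf9; at an unadjusted p under 0.05, 10 were higher and 1 lower. Directly compared, 0 members were higher with BMP than with CNTF and 1 was lower, Ifitm1 (1.67%), against 3.74% and 3.76% of all genes; unadjusted, 3 were higher and 5 lower. Each share of members rests on at most 4 genes, and no excess over all genes is read from it. The unadjusted counts have no share of all genes beside them, and no shift of the members is read from them.

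The block added calls among the members and among all genes. With it, 9 members rose with BMP (15%) and 3 fell (5.0%), against 10.7% and 9.28% of all genes. With CNTF 10 rose (16.7%) and 0 fell, against 5.44% and 4.06%. Between the additions 2 were higher with BMP (3.33%) and 4 lower (6.67%), against 9.38% and 8.82%. The median difference over the 60 members was 0.04 with BMP, 0.12 with CNTF and -0.05 between BMP and CNTF, and over all genes 0.01, 0.00 and 0.01. A difference above 0 was found for 56.7% of the members with BMP, 65.0% with CNTF and 38.3% for BMP against CNTF, against 50.9%, 49.0% and 51.1% of all genes. The members were chosen with earlier results of these data known, and some are alike in sequence. No excess over all genes and no shift of the members is therefore read from these shares and medians.

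**Figure D2:**
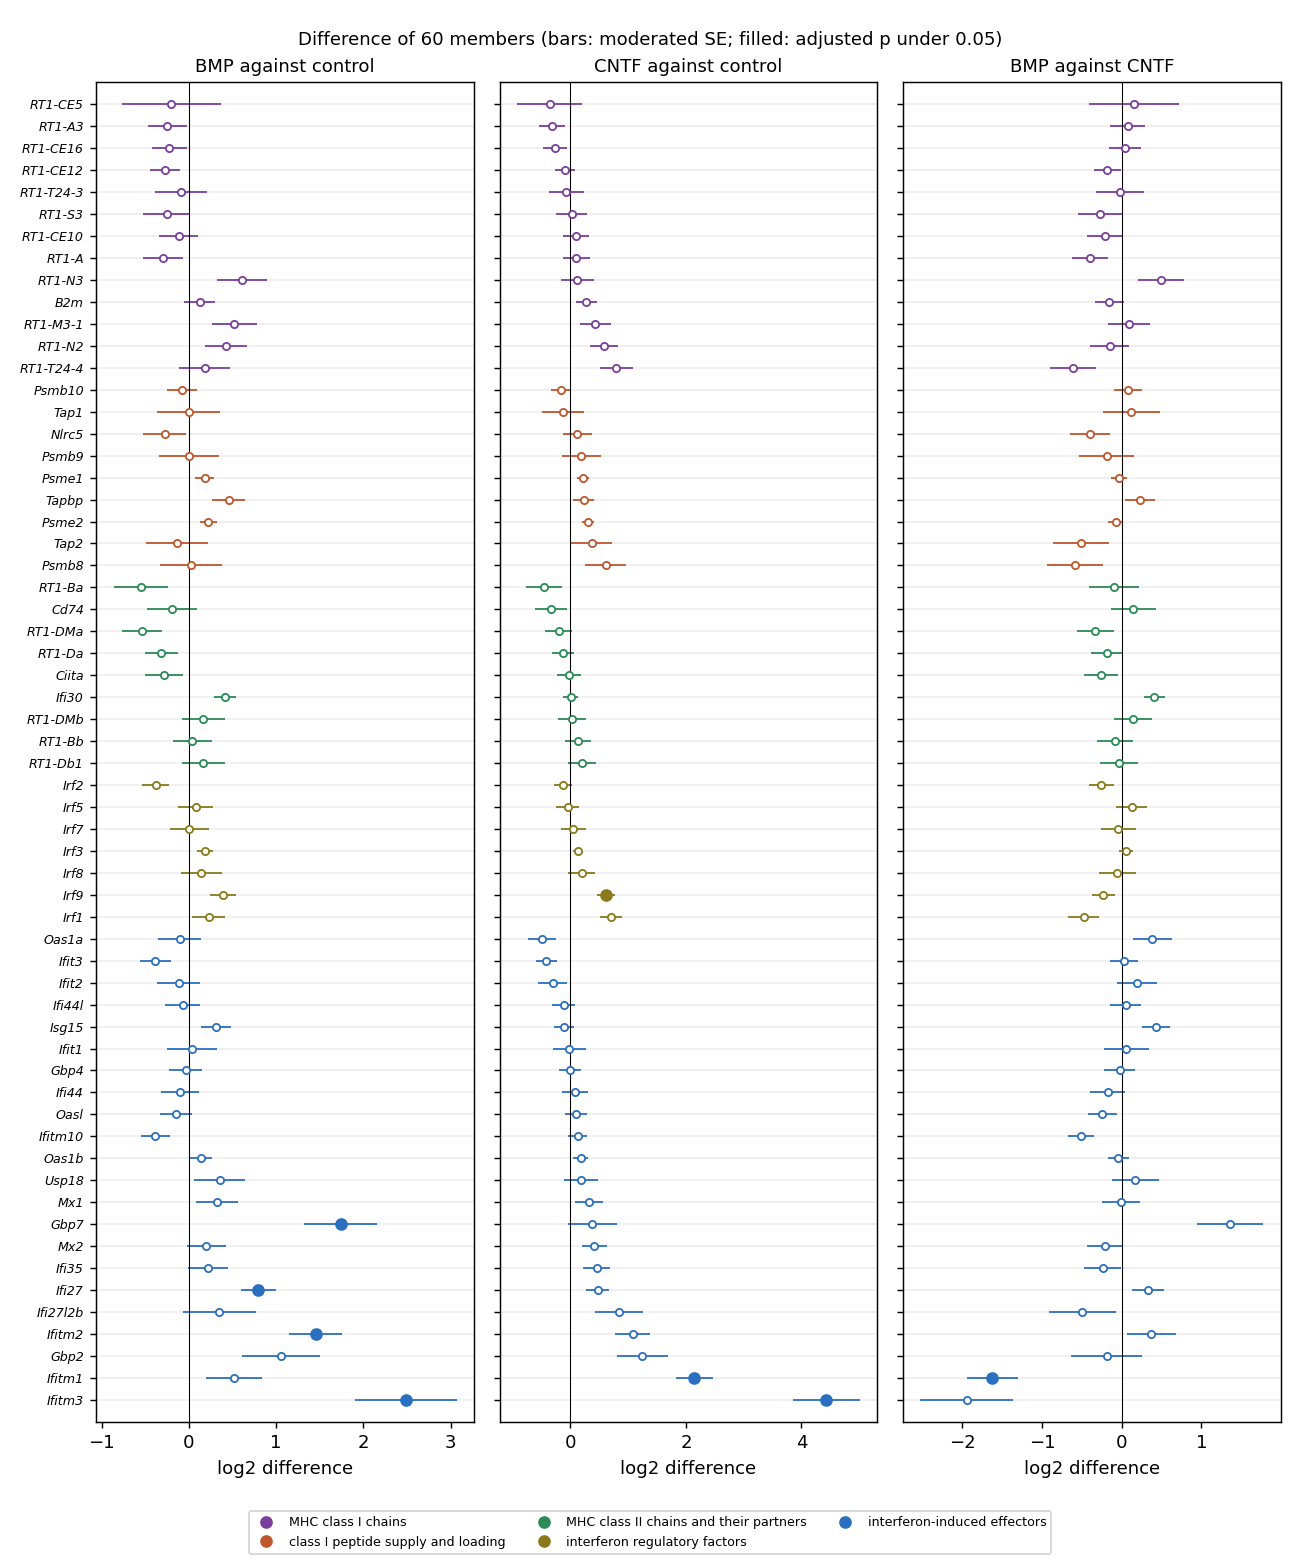
Log2 difference of each of the 60 members (rows, coloured by role and ordered within a role by the difference with CNTF) for both additions against control and for the additions against each other (BMP minus CNTF); bars are moderated standard errors and filled points have an adjusted p under 0.05 in the fit without the block. Most points lie within 1 of zero, and the filled points are 4, 3 and 1 in number.

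The Ifitm genes, which encode small membrane proteins that restrict the entry of viruses, held the largest differences. Ifitm3 lay at 7.83 to 10.70 (median 9.02) on control arrays, at 9.38 to 13.59 (median 12.02) on BMP arrays and at 12.59 to 14.59 (median 13.77) on CNTF arrays. Every CNTF array was above every control array, and BMP arrays 4 and 5 lay within the range of the controls. With CNTF Ifitm3 rose from 9.20 ± 0.96 to 13.63 ± 0.74 (SD, n = 6), a difference of 4.43 ± 0.58 (SE; 21.6-fold, adjusted p = 0.00017), higher in 6 of 6 same-numbered pairs. With BMP it rose to 11.68 ± 1.56, by 2.49 ± 0.58 (5.6-fold, adjusted p = 0.0141), higher in 5 of 6 pairs.

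The BMP difference of Ifitm3 was larger in numbers 1 to 3 than in numbers 4 to 6, a split chosen after the values were seen. BMP arrays 1, 2 and 3 stood at 12.72, 13.59 and 12.34, which is 4.89, 4.55 and 3.46 above their same-numbered controls. BMP arrays 4, 5 and 6 stood at 9.38, 10.37 and 11.70, with differences of 0.38, -0.33 and 1.97. The arrays with the large differences are those that stood apart on the first principal component. Over numbers 1 to 3 alone the difference was 4.30 and called, and over numbers 4 to 6 alone it was 0.67 and not called; leaving out number 1, 2 or 3 also lost the call (2.01, 2.07 and 2.29). The difference between these sets of numbers was not tested. With CNTF both sets were called (5.30 and 3.57), and the 6 pairs differed by 2.96 to 5.71. The CNTF differences were also larger in numbers 1 to 3 (5.14, 5.05 and 5.71) than in numbers 4 to 6 (3.60, 2.96 and 4.14). Both additions share the controls, which stood at 7.83, 9.04 and 8.88 in numbers 1 to 3. In numbers 4 to 6 the controls stood at 8.99, 10.70 and 9.74, so the split is not one of the BMP arrays alone.

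Ifitm3 was lower with BMP than with CNTF (-1.95 ± 0.58) in 6 of 6 pairs, which was not called without the block (adjusted p = 0.0542) and was called with it (blocked adjusted p = 0.021). In pairs 1 and 2 BMP minus CNTF was -0.25 and -0.49, and in pairs 3 to 6 it was -3.29 to -2.18. BMP arrays 1 and 2 thus reached levels close to those of their CNTF partners, and the others did not. The summed precursor markers were 18652, 50625 and 35079 on BMP arrays 1 to 3 and 54759, 58209 and 110929 on BMP arrays 4 to 6. The fibroblast sums were 30897, 78422 and 37983 against 13572, 23288 and 20907. Neither sum overlapped between BMP arrays 1 to 3 and BMP arrays 4 to 6, and neither did Ifitm3. The other marker sums overlapped between these arrays, such as the oligodendrocyte sums (15399, 44259 and 41754 against 37281, 65939 and 88511). The neuronal and astrocyte sums overlapped as well. On CNTF arrays, where Ifitm3 lay at 12.59 to 14.59, the precursor sums were 99811 to 152737, against 112307 to 169264 on controls. The fibroblast sums there were 3599 to 25979, against 4490 to 13420 on controls. Among BMP arrays 4 to 6, array 6 had both the highest precursor sum and the highest Ifitm3. The split was chosen after the values were seen, and the part of these markers was not tested.

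Ifitm2 had the more even response to BMP. It lay at 10.12 to 11.33 (median 10.92) on control, 11.32 to 13.39 (median 12.03) on BMP and 11.44 to 12.82 (median 11.72) on CNTF arrays, so that every CNTF array and every BMP array but array 3 exceeded all controls. With BMP it rose by 1.46 ± 0.30 (2.74-fold, adjusted p = 0.00678), in 6 of 6 pairs by 0.88 to 2.26. The CNTF difference was 1.08 ± 0.30, higher in 6 of 6 pairs and without overlap, with adjusted p = 0.0743 and blocked adjusted p = 0.00372. BMP and CNTF did not differ detectably in Ifitm2 (0.37 ± 0.30, adjusted p = 0.626). Both sets of numbers gave a BMP difference of the same direction, 1.73 and 1.18, neither called with 3 arrays a group.

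Ifitm1 differed with CNTF and not detectably with BMP. It lay at 6.94 to 8.51 (median 7.18) on control, 7.31 to 8.46 (median 7.99) on BMP and 8.37 to 10.33 (median 9.63) on CNTF arrays. All CNTF arrays but array 4, at 8.37, were above all arrays of the other 2 groups. With CNTF it rose by 2.14 ± 0.32 (4.42-fold, adjusted p = 0.000608), in 6 of 6 pairs. With BMP the difference was 0.52 ± 0.32 (adjusted p = 0.434), and Ifitm1 was lower with BMP than with CNTF (-1.63 ± 0.32, 0.324-fold, adjusted p = 0.0038) in 5 of 6 pairs. Ifitm10, a more distant relative, had levels of 10.64 to 11.08 on BMP, 11.00 to 11.62 on control and 10.89 to 11.95 on CNTF arrays. It was lower with BMP in 6 of 6 pairs, with differences of -0.39 ± 0.17 against control (adjusted p = 0.199, blocked adjusted p = 0.0387) and -0.51 ± 0.17 against CNTF (adjusted p = 0.0777, blocked adjusted p = 0.00849). Ifitm genes are alike in sequence, and probes of one can bind RNA of another.

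**Figure D3:**
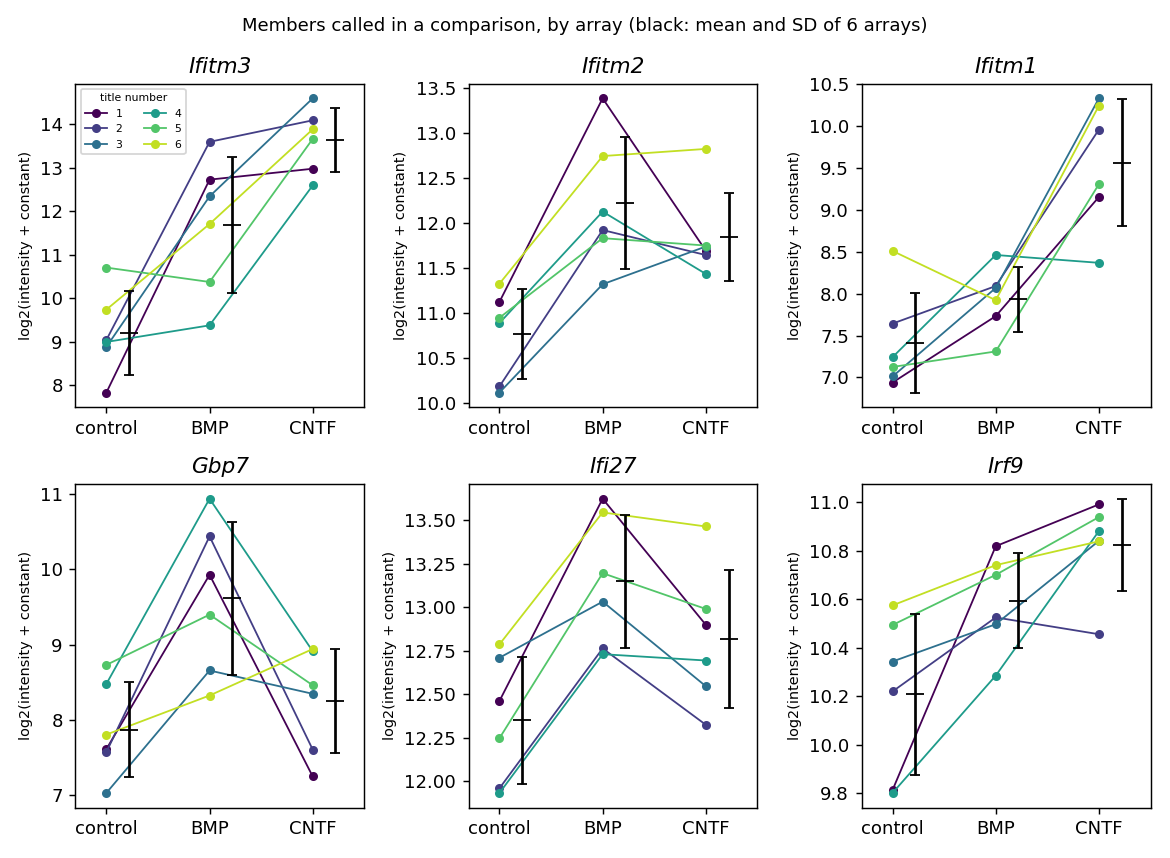
Level of Ifitm3, Ifitm2, Ifitm1, Gbp7, Ifi27 and Irf9 (vertical axes, log2(intensity + constant)) on each array of the control, BMP and CNTF groups; coloured lines join arrays with the same title number, and black marks are the mean and SD of 6 arrays. Ifitm3 on CNTF arrays lies above all controls, while its BMP arrays 4 and 5 lie among the controls; the mean of Gbp7 is highest with BMP, although BMP arrays 3 and 6 lie within the range of the other groups.

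The guanylate-binding proteins, large GTPases that act against intracellular pathogens, differed from each other. Gbp7 lay at 7.03 to 8.73 (median 7.71) on control, 8.33 to 10.94 (median 9.66) on BMP and 7.25 to 8.94 (median 8.41) on CNTF arrays. BMP arrays 1, 2, 4 and 5 were above all arrays of the other groups. It rose with BMP by 1.74 ± 0.42 (3.34-fold, adjusted p = 0.016), in 6 of 6 pairs by 0.52 to 2.86, a call that was lost without number 1 or number 2. Against CNTF it was higher by 1.36 ± 0.42 (adjusted p = 0.0608, blocked adjusted p = 0.0207), in 5 of 6 pairs, and CNTF against control gave 0.38 ± 0.42 (adjusted p = 0.86).

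Gbp2 was at 7.79 to 9.50 on control, 8.48 to 10.61 on BMP and 8.33 to 10.72 on CNTF arrays, with wide overlap. It was higher in 6 of 6 pairs under both additions, by 1.06 ± 0.45 with BMP (adjusted p = 0.192, blocked adjusted p = 0.0222) and by 1.25 ± 0.45 with CNTF (adjusted p = 0.209, blocked adjusted p = 0.0174). Gbp4 had the same mean in all groups within the spread, 7.60 to 7.63.

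Ifi27, a small hydrophobic protein induced by type I interferon, was bright throughout. It lay at 11.93 to 12.79 on control (median 12.35), 12.73 to 13.62 on BMP (median 13.11) and 12.32 to 13.46 on CNTF arrays (median 12.80), so its groups overlapped. It rose with BMP by 0.80 ± 0.20 (1.74-fold, adjusted p = 0.0212), in 6 of 6 pairs by 0.32 to 1.16. With CNTF it was higher in 5 of 6 pairs by 0.47 ± 0.20 (adjusted p = 0.35, blocked adjusted p = 0.0144). The BMP call was lost without control array 2, without BMP array 1, and without number 1, 2 or 5 (0.70 to 0.80). The dim relative Ifi27l2b had differences of 0.35 ± 0.42 with BMP and 0.84 ± 0.42 with CNTF (adjusted p = 0.746 and 0.463).

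None of the classical antiviral genes was called, and Isg15, Usp18 and Mx1 were dim. Isg15, a ubiquitin-like modifier, had means of 7.39, 7.70 and 7.27 on control, BMP and CNTF arrays, and Usp18, the protease that removes it, 7.76, 8.11 and 7.94. Mx1, a dynamin-like GTPase against RNA viruses, had means of 8.0, 8.32 and 8.33, and Mx2 of 9.94, 10.14 and 10.36. Their differences ran from -0.12 to 0.42 against control, with adjusted p of 0.372 to 0.924 and blocked adjusted p of 0.188 to 0.793. The Ifit genes, which bind viral RNA, and the Oas genes, which make the signal that activates RNase L, had no member called either. Oas1a had the lowest CNTF difference of all members, -0.49 ± 0.25 (adjusted p = 0.469), and Ifitm10 the lowest BMP difference of the effectors. Of the 22 effectors, the 5 called in any comparison without the block were Ifitm3, Ifitm2, Ifitm1, Gbp7 and Ifi27.

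Among the regulatory factors, transcription factors of the interferon system, Irf9 rose with CNTF. Irf9, the DNA-binding subunit of the complex that acts downstream of type I interferon, lay at 9.80 to 10.57 on control (median 10.28), 10.28 to 10.82 on BMP (median 10.61) and 10.46 to 10.99 on CNTF arrays (median 10.86). CNTF array 2 was the only CNTF array inside the control range. The difference was 0.62 ± 0.15 (1.53-fold, adjusted p = 0.0295), in 6 of 6 pairs by 0.24 to 1.18. A second Irf9 probe set rose by 0.76 ± 0.17 (adjusted p = 0.0212) without overlap of the groups. The call of the first was lost when any 1 of 8 arrays was left out (control 1, 2 and 4; CNTF 1, 3, 4, 5 and 6) or any 1 of the 6 numbers, with differences of 0.50 to 0.69. With BMP the difference was 0.39 ± 0.15 (adjusted p = 0.142, blocked adjusted p = 0.0529).

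Irf1, an early activator of antigen presentation genes, lay at 9.22 to 10.29 on control, 9.39 to 10.41 on BMP and 10.30 to 10.78 on CNTF arrays. All CNTF arrays were above all controls, by a narrow margin, and the difference of 0.70 ± 0.19 was called only with the block (adjusted p = 0.0674, blocked adjusted p = 0.0228). Irf2, which competes with Irf1 for the same sites, was lower with BMP in 6 of 6 pairs (-0.38 ± 0.15, adjusted p = 0.163, blocked adjusted p = 0.0443), while its 2 dimmer probe sets differed by 0.02 and 0.33. Irf3, the factor activated by nucleic acid sensing, had means of 11.97, 12.15 and 12.10 (adjusted p = 0.266 with BMP and 0.684 with CNTF). Irf7, which amplifies type I interferon, and Irf5 and Irf8, which are prominent in myeloid cells, were dim at means of 7.24 to 8.64, with differences of -0.05 to 0.19 against control and none called.

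No MHC class I chain was called without the block. B2m, the light chain of all class I molecules, was at 14.06 to 15.14 on control, 14.12 to 15.12 on BMP and 14.45 to 15.19 on CNTF arrays, so the groups overlapped almost fully. In same-numbered pairs CNTF was higher in 6 of 6, by 0.05 to 0.44, with a mean of 0.28 ± 0.18 (adjusted p = 0.642, blocked adjusted p = 0.0085), whereas a second B2m probe set differed by -0.01. Of the 12 RT1 chains, RT1-T24-4 had the highest CNTF difference, 0.80 ± 0.29 (adjusted p = 0.217, blocked adjusted p = 0.0225), from 10.04 ± 0.77 to 10.83 ± 0.52; it was lower with BMP than with CNTF (-0.61 ± 0.29, adjusted p = 0.272, blocked adjusted p = 0.0491). RT1-N3 (0.61 ± 0.29, adjusted p = 0.258, blocked adjusted p = 0.0283) and RT1-M3-1 (0.52 ± 0.26, adjusted p = 0.299, blocked adjusted p = 0.0167) were higher with BMP in 6 of 6 pairs. RT1-A, a classical class I chain, was dim at 7.60, 7.31 and 7.71 (differences of -0.30 and 0.10, adjusted p = 0.565 and 0.95). RT1 chains share long stretches of sequence, so their probe sets cannot be taken as separate measurements; a second RT1-CE5 probe set was lower under both additions with the block only (-0.55 and -0.62, adjusted p = 0.471 and 0.581, blocked adjusted p = 0.0444 and 0.0427), and another RT1-S3 probe set with BMP (-0.70, adjusted p = 0.481, blocked adjusted p = 0.0486).

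The genes of peptide supply were likewise without a call before the block. Psme2 and Psme1, subunits of the activator that opens the proteasome, were bright, and Psme2 lay at 12.59 to 13.13 on control, 12.86 to 13.17 on BMP and 12.92 to 13.32 on CNTF arrays. Its differences were 0.22 ± 0.10 with BMP (adjusted p = 0.213, blocked adjusted p = 0.0489) and 0.30 ± 0.10 with CNTF (adjusted p = 0.145, blocked adjusted p = 0.0198). Psme1 differed by 0.18 and 0.21 (± 0.10; adjusted p = 0.391 and 0.45). Both activator genes thus had small differences in the same direction, of which those of Psme2 passed with the block.

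The inducible proteasome subunits Psmb8, Psmb9 and Psmb10, which replace constitutive ones in the immunoproteasome, differed by 0.02, 0.00 and -0.08 with BMP and by 0.61, 0.19 and -0.16 with CNTF (adjusted p = 0.579 to 0.997). Tap1 and Tap2, the subunits of the peptide transporter, differed by 0.00 and -0.14 with BMP and by -0.13 and 0.37 with CNTF, with SE of 0.36 (adjusted p = 0.823 to 0.998). Tapbp, the tapasin that bridges transporter and class I, was higher with BMP by 0.46 ± 0.19 (adjusted p = 0.177, blocked adjusted p = 0.067). Nlrc5, the class I transactivator, was dim at 7.99, 7.71 and 8.11 (adjusted p = 0.631 and 0.946 against control). The standard errors of Psmb8, Psmb9, Tap1 and Tap2, 0.34 to 0.36, were the widest of this role.

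Class II genes were mostly dim. Cd74, the invariant chain, lay at 7.29 to 8.41 on control, 7.22 to 8.55 on BMP and 7.10 to 8.74 on CNTF arrays, and Ciita, the class II master regulator, at 7.38 to 8.50, 7.31 to 8.08 and 7.64 to 8.41. Neither was called (Cd74 -0.19 and -0.34, adjusted p = 0.799 and 0.776; Ciita -0.29 and -0.03, adjusted p = 0.544 and 0.988). The microglia markers were dim on the same arrays. RT1-Ba had the lowest BMP difference of the role, -0.55 ± 0.31 (adjusted p = 0.37).

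Ifi30 and RT1-DMa were the members of this role above the median of the table. Ifi30, a lysosomal thiol reductase that unfolds antigens, lay at 11.40 to 11.91 on control, 11.52 to 12.30 on BMP and 11.42 to 11.84 on CNTF arrays. It was higher with BMP in 6 of 6 pairs, by 0.41 ± 0.13 against control (adjusted p = 0.0614, blocked adjusted p = 0.00393) and by 0.41 ± 0.13 against CNTF (adjusted p = 0.0652, blocked adjusted p = 0.0042), and BMP array 4 was the lowest of its group. RT1-DMa, a chain of the editor that loads class II molecules, lay at 10.12 to 10.82 on control and 9.56 to 10.65 on BMP arrays and was lower with BMP in 6 of 6 pairs (-0.54 ± 0.23, adjusted p = 0.204, blocked adjusted p = 0.0141). Its partner RT1-DMb differed by 0.17 ± 0.24 (adjusted p = 0.796). Ifi30 and RT1-DMa, both of the lysosomal class II route, thus had BMP differences of opposite sign.

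Of 19 measured genes of interferon ligands, receptors and signalling, 2 rose with BMP (10.5%, against 4.21% of all genes). With CNTF 2 rose (10.5%, against 2.04%), and 3 were lower with BMP than with CNTF (15.8%, against 3.76%). With the block 3 rose and 2 fell with BMP (10.7% and 9.28% of all genes did), and 4 rose with CNTF (5.44% did). Between the additions 2 were higher and 4 lower (9.38% and 8.82% of all genes). The list was chosen with earlier results of these data known, and no excess over all genes is read from these shares. The ligands Ifng, Ifnb1 and Ifnk had means of 6.99 to 7.45 in all groups, near the low end of the scale. Jak1, the kinase shared by interferon and gp130 receptors, rose with BMP by 0.39 ± 0.11 (adjusted p = 0.0315) and with CNTF by 0.86 ± 0.11 (adjusted p = 7.69e-05), and was lower with BMP than with CNTF (-0.47 ± 0.11, adjusted p = 0.0108). Ifnar2, a chain of the type I receptor, rose with BMP (0.46 ± 0.13, adjusted p = 0.0384) and Jak2 with CNTF (0.54 ± 0.11, adjusted p = 0.0068). Jak2 and Ptpn1, a phosphatase that acts on JAK kinases, were lower with BMP than with CNTF, with differences of -0.46 ± 0.11 (adjusted p = 0.012) and -0.55 ± 0.11 (adjusted p = 0.00427).

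Of 31 measured further interferon-induced genes, 5 rose with CNTF (16.1%, against 2.04% of all genes) and 1 with BMP (3.23%, against 4.21%). Lower with BMP than with CNTF were 3 (9.68%, against 3.76%). This list too was chosen with earlier results of these data known, and no excess over all genes is read from its shares. With the block, 8 rose with CNTF and 4 with BMP, and 1 was higher and 5 were lower with BMP than with CNTF. Of all genes, 5.44% rose with CNTF and 10.7% with BMP under the block, and 9.38% were higher and 8.82% lower between the additions. Parp9 and Dtx3l, which form a complex with ubiquitin ligase activity, rose together with CNTF, by 1.58 ± 0.21 (adjusted p = 0.000219) and 1.39 ± 0.20 (adjusted p = 0.000343), without overlap with the controls. Shisa5 (0.82 ± 0.11, adjusted p = 0.000241), the GTPase Igtp (1.23 ± 0.26, adjusted p = 0.0142) and the ubiquitin ligase Trim25 (1.23 ± 0.31, adjusted p = 0.0391) also rose. Parp9, Dtx3l and Shisa5 were lower with BMP than with CNTF (-1.03, -1.04 and -0.46, adjusted p = 0.00541, 0.00278 and 0.016). With BMP it was Samhd1, which destroys nucleotides that viruses need, that rose (0.76 ± 0.20, adjusted p = 0.0312). Trim25 was named after its values were seen, to complete the count.

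**Figure D4:**
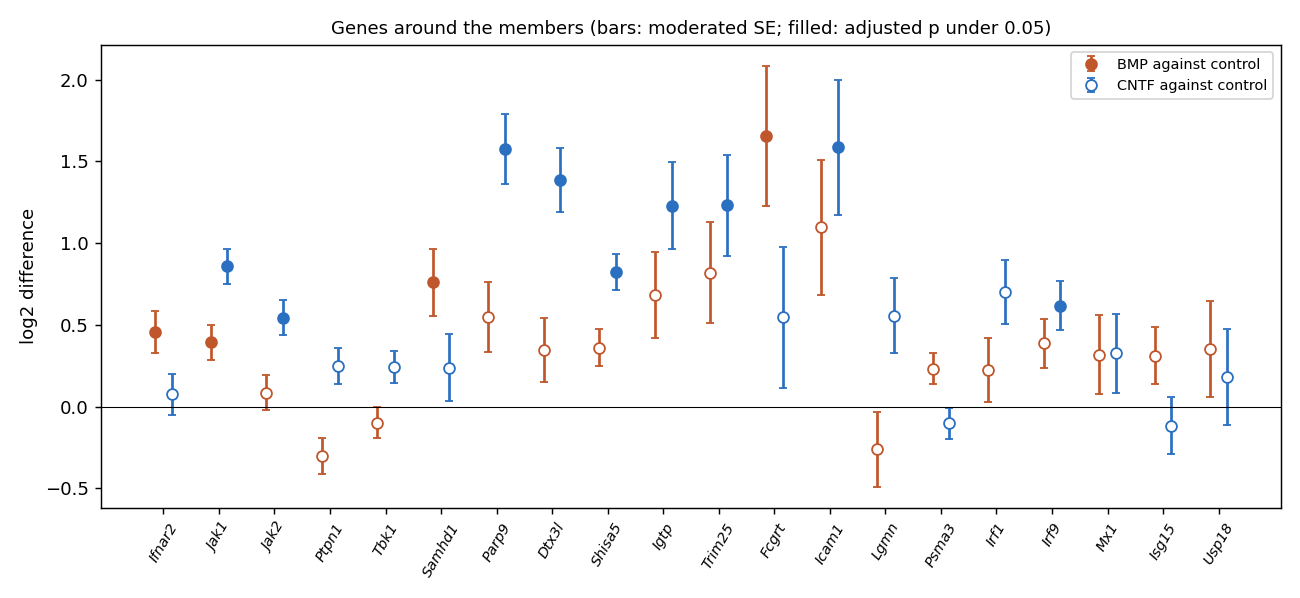
Log2 difference against control with BMP and with CNTF (vertical axis) of the 15 genes of the pathway lists outside the 60 that were called in a comparison and of the members Irf1, Irf9, Mx1, Isg15 and Usp18; bars are moderated standard errors and filled points have an adjusted p under 0.05. Jak1 is filled for both additions, Parp9, Dtx3l, Shisa5, Igtp and Trim25 for CNTF, and Mx1, Isg15 and Usp18 for neither.

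Of 29 further antigen presentation genes, Fcgrt, the class I-like Fc receptor that pairs with B2m, rose with BMP (1.65 ± 0.43, adjusted p = 0.0257). Icam1, an adhesion molecule of the immune synapse, rose with CNTF (1.59 ± 0.41, adjusted p = 0.0481). Each is 3.45% of the list, against 4.21% of all genes that rose with BMP and 2.04% with CNTF. With the block 2 rose and 1 fell with BMP, 4 rose with CNTF, and 4 were higher and 1 lower between the additions. Lgmn, a lysosomal protease, was lower with BMP than with CNTF (-0.82 ± 0.23, adjusted p = 0.0375), or 3.45% of the list against 3.76% of all genes. Of 13 measured nucleic acid sensing genes, 1 was called without the block (7.69%, against 3.76% of all genes). This was the kinase Tbk1, lower with BMP than with CNTF (-0.34 ± 0.10, adjusted p = 0.0397). With the block, 1 sensing gene rose and 2 fell with BMP, 1 rose with CNTF, and 1 was higher and 4 lower with BMP than with CNTF. Of 18 constitutive proteasome genes, Psma3 was called (5.56%, against 3.74% of all genes), higher with BMP than with CNTF (0.33 ± 0.09, adjusted p = 0.0406). Against control 0 were called by limma without the block. At an unadjusted p under 0.05, 2 were higher and 2 lower with BMP, and 1 was higher with CNTF. No share of all genes stands beside these unadjusted counts. With the block, 2 rose and 3 fell with BMP, 1 rose with CNTF, and 1 was higher and 1 lower between the additions. Of all genes under the block, 10.7% rose and 9.28% fell with BMP, and 5.44% rose and 4.06% fell with CNTF. Between the additions 9.38% were higher and 8.82% lower, and no excess is read from the counts of these lists.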

How the data were processed

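The members and gene lists were chosen with earlier results of these data known. The authors deposited linear probe set intensity values (0.404 to 162940, 31099 probe sets); how they were summarised is not given in the sources used here, nor to which target they were scaled. With 2% trimmed at each end, the mean of every array was 2500.0, and the 75th percentiles ranged over 0.07 log2, below the 0.3 set for renormalization, so the deposited scale was kept. The 57 control probe sets were left out.

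Symbols came from the platform annotation: 20826 probe sets carried 1 symbol, 436 several and 9780 none. Probe sets with several symbols were not named. Of the 60 members, 14 had more than 1 probe set, and 9 were read by a probe set whose suffix marks probes shared between transcripts.

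The fits used lmFit on group means and eBayes with an intensity trend (limma 3.58.1, R 4.3.3), two-sided, with groups taken from the labels, and the script was tested on simulated data. Counts of all genes take each gene by its brightest probe set. The ± of a difference is the moderated SE; group values are mean ± SD of 6 arrays. The number of arrays limits the precision. Same-numbered arrays deviated together from their group means (r 0.121 to 0.491 in 18 pairs, the highest with the own number in 17), which is where the pairing comes from; the labels do not state it. There were 32 alternatives, and 2 more, numbers 1 to 3 and 4 to 6 alone, were chosen after seeing the data.

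Named were the members called in any comparison without or with the block, a fixed set of regulators and loading genes (B2m, Cd74, Ciita, Nlrc5, Tap1, Tap2, Tapbp, the listed proteasome genes, the regulatory factors, Isg15, Usp18, Mx1 and Mx2), the extremes of each role, and up to 4 called genes per list and comparison. Promoter windows were matched by symbol.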

Additional observations from a re-analysis of the deposited data

Results flagged for a closer look

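In 105 groups of 6 arrays (35 named members in 3 groups), 10 had 1 array far from the other 5, where chance gives about 1 in 20. Values are levels on the log2(intensity + constant) scale.

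CNTF array 4 was the highest of its group for 3 regulatory factors: Irf1 stood at 10.78 with the others at 10.30 to 10.35, Irf2 at 10.76 (10.755 before rounding) with the others at 9.82 to 10.09, and Irf5 at 7.91 with the others at 7.03 to 7.23. CNTF array 3 was the lowest for both transporter subunits, with Tap1 at 7.02 against 8.36 to 9.01 and Tap2 at 7.75 against 8.74 to 9.13. CNTF array 6 was the highest for Ifitm2, at 12.82 against 11.44 to 11.75, and the lowest for Usp18, at 7.30 against 7.96 to 8.30. CNTF array 2 was the lowest for Irf9, at 10.46 against 10.84 to 10.99, which made it the CNTF array inside the control range. Among the controls, array 5 was the highest for Isg15, at 8.0 against 7.16 to 7.36, and array 6 the highest for Tapbp, at 9.82 against 8.76 to 9.13.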

How the results depend on the processing

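No call of the 180 member and comparison pairs reversed under any of 34 alternatives, and 21 of 172 uncalled pairs were called under at least 1. With the title number as a replicate block, members called higher came to 9 with BMP, 10 with CNTF and 2 for BMP against CNTF, and those called lower to 3, 0 and 4. Numbers 1 to 3 alone gave 2 higher with BMP (Gbp7 and Ifitm3). Numbers 4 to 6 alone gave 0 higher with BMP and 1 with CNTF (Ifitm3). For BMP against CNTF, the 40th percentile as constant gave 1 higher and 2 lower, quantile normalization 2 lower, and leaving out dim probe sets 1 higher. Leaving out single arrays or numbers gave 1 to 6 higher with BMP, 2 to 4 higher with CNTF, and 0 to 1 higher and 1 to 3 lower between them. Without number 1 or without number 2, 1 member was called higher with BMP. The cause of these changes was not tested, and the subsets also held fewer arrays.

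Leaving out dim probe sets, which kept 18 members, moved the median difference of the members to 0.18 with BMP, 0.24 with CNTF and -0.17 between them. Without BMP array 3 the BMP median was 0.15, and over numbers 1 to 3 alone it was 0.17. With only the arrays of the groups compared, Irf9 with CNTF (0.62) was no longer called. Over numbers 4 to 6 alone, Ifitm1 was not called with CNTF (1.68) or between the additions (-1.41), and Gbp7 was not called with BMP (1.21). Ifitm3 with CNTF was called under all 34 alternatives, at 3.57 to 5.30. Dim probe sets limit the precision, since 40 of 60 members lay below the median of the table in all groups.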
